A study of Mus musculus with 6 samples.

Results

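Transcripts of 10 matricellular and related genes were measured in cultured fibroblasts from mouse mammary tumours. The genes were the 4 thrombospondins Thbs1, Thbs2, Thbs3 and Thbs4, the cartilage thrombospondin Comp, the tenascins Tnc and Tnxb, periostin (Postn), Sparc and its relative Sparcl1. They were chosen by symbol, and all 10 were found among 48368 symbols. The cells were cancer-associated fibroblasts, taken by digestion and centrifugation from tumours of MMTV-PyMT mice and then grown in medium with serum. In these mice a viral oncogene under a mammary tumour virus promoter gives mammary tumours, and all groups carried it. The groups were 3 libraries labelled Hic-5-/- (KO) and 3 labelled Hic-5+/- (HET). Hic-5, encoded by Tgfb1i1, is an adaptor protein of focal adhesions, and HET cells keep 1 copy of it, so that no group was wild type. The animals' age is unknown here. The submitters call the samples technical triplicates, yet 5 different numbers stand in the 6 titles, and separate animals or cultures cannot be assumed. The p-values below set the difference between the labels against the spread of these libraries within a label. They therefore cannot be carried over to animals or cultures.

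Matricellular proteins are secreted into the matrix, where they tune how cells attach, signal and lay down collagen rather than serving as load-bearing fibres themselves. Thrombospondins are multimeric calcium-binding glycoproteins that bind cell-surface receptors such as CD36, CD47 and integrins. Tenascin-C and periostin are known for their abundance in wounds and tumour stroma, and SPARC binds collagen and takes part in its assembly.

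Libraries held between 24954273 and 42470598 estimated counts. Levels below are in CPM, counts set to a common library size after TMM scaling, which corrects for differences in composition between libraries. Depending on the library, 3 counts were worth 0.0683 to 0.119 CPM, a floor for counting error only. Tgfb1i1 stood at 90.4, 0.232 and 156 CPM in KO replicates 1 to 3, against 223, 348 and 125 CPM in HET replicates 1 to 3, so the targeted transcript was nearly absent from KO replicate 2 alone. The same library was the lowest for most fibroblast markers, with Col1a2 at 0.491 CPM against 577 to 5109 CPM in the other libraries. Acta2 stood at 45.5 CPM there, against 1338 to 6455 CPM in the others. Col1a1 (2.56 CPM), Dcn (0.775 CPM), Thy1 (0.981 CPM), Lum (0.0258 CPM) and S100a4 (106 CPM, against 540 to 2001 CPM in the others) were also lowest there. Pdgfra, at 124 CPM, and Pdgfrb, at 138 CPM, were lowest there too. They were close to KO replicate 3 (143 CPM) and to KO replicate 1 (184 CPM), respectively. Col3a1, at 21.8 CPM, was above KO replicate 1 (9.44 CPM). Vim, at 2870 CPM, was also above KO replicate 1 (2020 CPM). KO replicate 2 also had the highest Krt8, at 13.7 CPM. Summed over 10 fibroblast markers, the level was 394 to 5260 CPM in KO and 6119 to 14021 CPM in HET. Of the 9 fibroblast markers tested, 8 had a log2 fold change under 0, beside 49.1% of all genes tested. By edgeR 1 (Col3a1) was lower in KO at an unadjusted p under 0.05, beside 4.29% of all genes. Fap, the marker not tested, was at or under 0.455 CPM in every library, and at 0 in HET replicate 3. Sums over the marker lists of other cell types overlapped between the labels except for 6 adipocyte genes, at 46.4 to 91.7 CPM in KO and 114 to 471 CPM in HET, most of it Lpl. Among 10 leukocyte markers the sum ran from 16.3 to 1159 CPM in KO and from 31.5 to 1534 CPM in HET, and was highest in KO replicate 3 and HET replicate 2. For 10 epithelial markers the sum ran from 28.3 to 88.3 CPM in KO and from 17.9 to 65.8 CPM in HET. Krt19 made up most of this sum in every library but KO replicate 2. It had 27.2, 0.542 and 17.8 CPM in KO replicates 1 to 3, against 64.1, 13.0 and 16.2 CPM in HET replicates 1 to 3. Of the 7 epithelial markers tested, 6 had a log2 fold change above 0, and Krt19 was under 0 (-1.03). Krt8, Krt18 and Cdh1, each highest in KO replicate 2, were higher at an unadjusted p under 0.05 by edgeR, beside 4.30% of all genes. The sum ran from 38.2 to 77.9 CPM in KO and 52.4 to 352 CPM in HET over 10 pericyte and smooth muscle markers, with Higd1b at 0 throughout. For 10 endothelial markers it was at most 16.7 CPM in KO and 9.24 CPM in HET, with Cldn5 at 0 throughout, and for 6 Schwann cell markers at most 11.8 CPM in KO and 21.3 CPM in HET.

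Thbs1 and Sparc carried most of the counts of the 10 genes. Together the 10 genes took 1.44%, 0.742% and 1.23% of the estimated counts in KO replicates 1 to 3, against 1.72%, 2.01% and 1.68% in HET replicates 1 to 3, and these shares did not overlap between the labels. Thbs1 made up 65.9% to 71.5% of the counts of the 10 genes in KO libraries and 34.0% to 75.6% in HET libraries. In HET replicate 1 it was Sparc that led, with 52.9%. Levels of different genes were compared per kilobase of exonic sequence, because the deposited RPKM values were scaled by the whole genomic span of a gene with its introns. On CPM per exonic kilobase the order Thbs1, Sparc, Tnc held at the top in all 3 KO libraries and in HET replicates 2 and 3, while in HET replicate 1 the order was Sparc, Thbs1, Postn. The means in KO were 1250 ± 457 for Thbs1, 378 ± 127 for Sparc, 189 ± 112 for Tnc, 37.0 ± 50.8 for Thbs2 and 20.6 ± 26.3 for Postn. The means in HET were 1895 ± 782 for Thbs1, 1529 ± 945 for Sparc, 73.9 ± 51.9 for Tnc, 69.1 ± 43.7 for Thbs2 and 67.7 ± 74.3 for Postn (CPM per exonic kilobase, SD, n = 3 each). Of neighbours in this order, only Thbs1 and Sparc in KO, and only Sparc and Tnc in HET, had libraries whose ranges did not overlap. The other 5 genes stayed at or under 5.43 CPM per exonic kilobase in every library, with Tnxb in HET replicate 3 the highest.

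**Figure D1:**
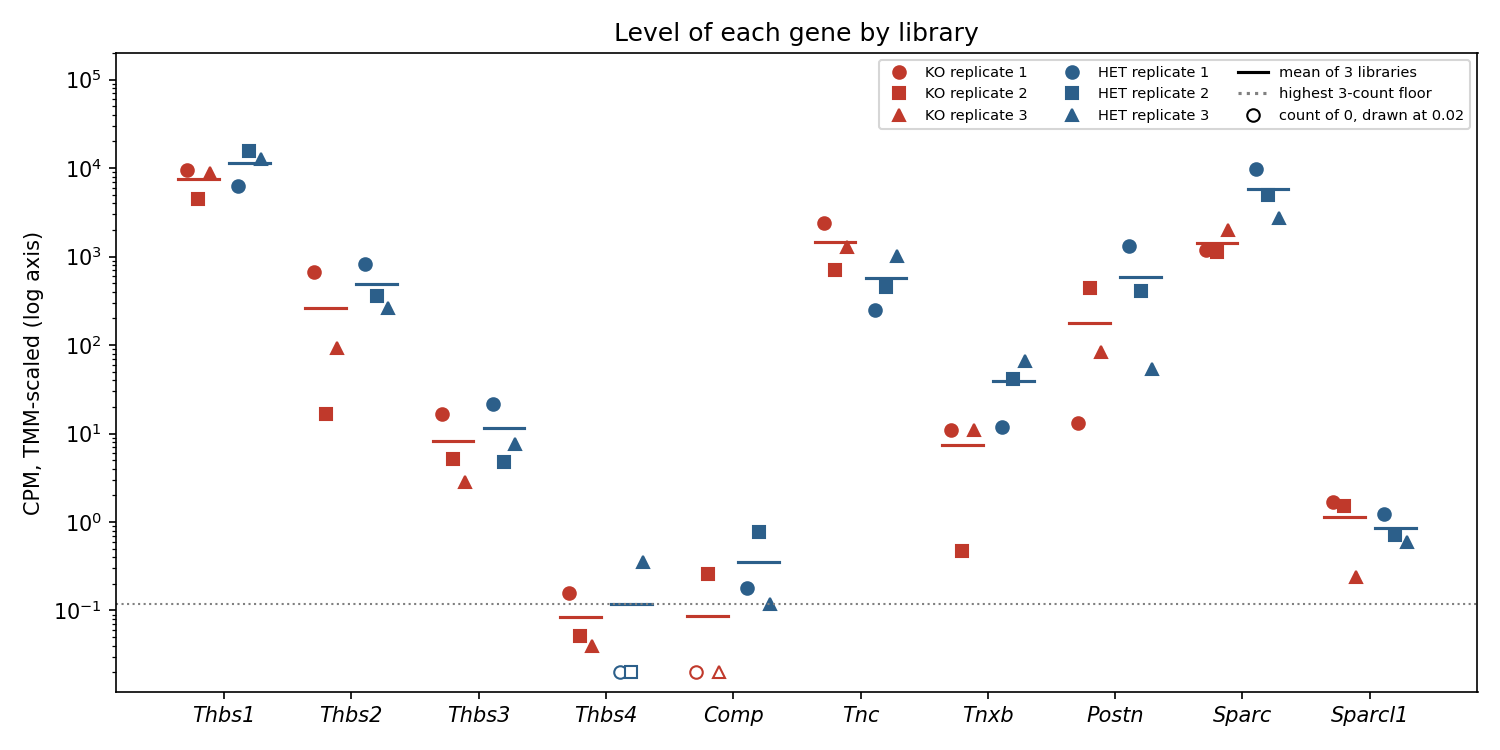
CPM (log axis) of the 10 genes in each library, KO libraries in red to the left of HET libraries in blue. Horizontal bars are means of 3 libraries, the dotted line is the highest floor of 3 counts, and open symbols stand for a count of 0. All 3 KO libraries lie under all 3 HET libraries for Sparc (1126 to 1989 against 2723 to 9726 CPM) and, by a narrow margin, for Tnxb.

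No member passed the adjusted threshold of 0.05 between KO and HET in edgeR's quasi-likelihood test. The same test called 0% of the 17584 genes tested, with a smallest adjusted p of 0.579 and 1511 genes at an unadjusted p under 0.05. Thbs4 and Comp did not pass the filter on low counts, which left 8 members. At an unadjusted p under 0.05, 1 of the 8 was lower in KO (Sparc) and 0 were higher, beside 4.29% lower and 4.30% higher over all genes tested. DESeq2 called Sparc as lower at its adjusted threshold and called no member as higher, beside 0.961% lower and 0.404% higher over all genes. By limma-voom 0 genes passed and 1538 had an unadjusted p under 0.05. The labels did not overlap for 2 of the 8 members, Sparc and Tnxb, both lower in KO, beside 7.40% of all genes lower and 8.09% higher without overlap. Of the 8 log2 fold changes, 6 were under 0, with a median of -0.75, beside a median of 0.01 over all genes, of which 49.1% were under 0. That median was -1.33 without KO replicate 1, -0.30 without HET replicate 1 and -0.33 without KO replicate 2. Without KO replicate 2, Sparc and Tnxb were lower and Tnc higher at an unadjusted p under 0.05 (edgeR adjusted p = 0.950 each), beside 3.09% lower and 2.00% higher of 18016 genes in that fit, whose median over all genes was 0.000967. In bulk samples, fewer cells of a type and less RNA per cell cannot be told apart.

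Promoter sequence is shown for Tnxb, whose labels did not overlap, and for Tnc, the other tenascin, with a fold change of the other sign. Windows of 250 bases before the RefSeq start site (GRCm38.p6) were available for 7 of the 10 genes, not including Thbs1, Comp and Sparcl1, and the window before the outermost start was taken for Tnc. They are Tnxb at chr17:34670285-34670534 (plus strand) and Tnc at chr4:64047016-64047265 (minus strand), each 5′ to 3′, and neither overlaps an exon annotated in GENCODE M21. The Sparc window overlaps first exons of other Sparc transcripts and is not printed. Capitals mark 3 short motifs searched on both strands, none overlapping another. The TATA box was searched as TATAAA. The site of AP-1, the Fos and Jun dimer, was searched as TGANTCA, where N is any base. The core site of Smad factors, which act downstream of TGF-beta, was searched as CAGAC.
Tnxb: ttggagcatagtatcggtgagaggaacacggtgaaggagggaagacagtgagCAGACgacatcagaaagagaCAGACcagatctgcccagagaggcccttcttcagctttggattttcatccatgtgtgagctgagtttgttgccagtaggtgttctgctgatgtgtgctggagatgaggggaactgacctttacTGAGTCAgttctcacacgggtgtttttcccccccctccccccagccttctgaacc
Tnc: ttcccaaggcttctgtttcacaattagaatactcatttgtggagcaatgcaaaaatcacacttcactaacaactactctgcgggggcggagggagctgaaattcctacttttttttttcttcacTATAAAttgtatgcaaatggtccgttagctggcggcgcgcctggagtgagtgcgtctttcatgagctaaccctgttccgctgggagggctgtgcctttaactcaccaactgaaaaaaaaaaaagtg
The Tnxb window held 2 Smad sites and 1 AP-1 site and no TATA box. The printed Tnc window held 1 TATA box, at -126 from its start site, and none of the other 2 motifs. Tnc has another window, chr4:64046937-64047186, which held 1 TATA box and 1 Smad site, so the absence of a Smad site depends on the start taken. The Sparc window held 1 Smad site alone of the 3 motifs. Over 32851 windows of the same length, 12.4% held this TATA box, 6.75% the AP-1 site and 42.2% the Smad site. No Tnxb, Tnc or Sparc window held a match to the CArG box of serum response factor (1.47% of all windows) or to the TEAD site GGAATG (12.6%). A match is a description of letters and not a binding site.

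Thbs1, the thrombospondin best known for restraining angiogenesis and for activating latent TGF-beta, lies on chromosome 2 from 118111876 to 118127133 (GRCm38, GENCODE M21). It was among the most abundant transcripts of these cells. Thbs1 had 9612, 4427 and 8729 CPM in KO replicates 1 to 3, against 6248, 15483 and 12795 CPM in HET replicates 1 to 3. The labels overlapped, since HET replicate 1 stood under KO replicates 1 and 3. By estimated count it ranked 2, 6 and 2 among all genes in KO replicates 1 to 3, and 5, 1 and 1 in HET replicates 1 to 3. The means were 7589 ± 2774 CPM in KO and 11509 ± 4750 CPM in HET (SD, n = 3 each), with a log2 fold change of -0.60 ± 0.50 (SE) and an edgeR adjusted p of 0.710. The difference in means was larger than the SD of the KO libraries and smaller than that of the HET libraries. Gm29233, annotated as a long intergenic noncoding RNA on the opposite strand, shares 208 exonic bases with Thbs1, and its count was 1.08% to 1.19% of that of Thbs1 in KO libraries and 1.06% to 1.16% in HET libraries. The counting was not stated to use strand, so reads of the pair cannot be told apart there.

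Thbs2, a close relative of Thbs1 that lacks its activation of TGF-beta and is known for its part in collagen fibril structure, lies on chromosome 17 from 14665500 to 14694235. Thbs2 had 667, 16.5 and 93.5 CPM in KO replicates 1 to 3, against 833, 354 and 263 CPM in HET replicates 1 to 3. KO replicates 2 and 3 stood under every HET library, and KO replicate 1 stood among the HET libraries. Within KO the highest library exceeded the lowest 40.4-fold, while within HET the factor was 3.17. EdgeR gave a log2 fold change of -0.90 ± 1.21 (SE, adjusted p = 0.821). Without KO replicate 1 it was -3.15 (adjusted p = 0.530), without HET replicate 1 it was -0.24 (adjusted p = 0.956) and without KO replicate 2 it was -0.34 (adjusted p = 0.986). Limma-voom gave -2.09 (adjusted p = 0.604). The count of Thbs1 was 14.4, 268 and 93.4 times that of Thbs2 in KO replicates 1 to 3, against 7.50, 43.7 and 48.6 times in HET replicates 1 to 3. A ratio within a library does not depend on its scaling, and here the labels overlapped.

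The thrombospondins that form pentamers were scarce. Thbs3, on chromosome 3 from 89215180 to 89226837, had 16.8, 5.21 and 2.84 CPM in KO replicates 1 to 3, against 21.7, 4.77 and 7.69 CPM in HET replicates 1 to 3. Replicate 1 of each label was the highest, and the labels overlapped. The log2 fold change was -0.46 ± 0.82 (SE, edgeR adjusted p = 0.871), and it was 0.42 without HET replicate 1 (adjusted p = 0.867), -1.49 without KO replicate 1 (adjusted p = 0.562) and -0.03 without KO replicate 3 (adjusted p = 0.991). Mtx1, a gene of mitochondrial protein import on the opposite strand, overlaps Thbs3 over 318 exonic bases and stood at 26.7 to 32.3 CPM in KO and 21.6 to 26.5 CPM in HET. Its count was 192% to 1081% of that of Thbs3 in KO libraries and 99.6% to 557% in HET libraries. Reads of this pair cannot be told apart in the shared bases, so the low Thbs3 values may hold reads of Mtx1. Thbs4, known from tendon and muscle and located on chromosome 13 from 92751590 to 92794818, had 7, 2 and 1 counts in KO replicates 1 to 3, against 0, 0 and 9 counts in HET replicates 1 to 3. Comp, the cartilage oligomeric matrix protein, on chromosome 8 from 70373558 to 70382066, had 0, 10 and 0 counts in KO replicates 1 to 3, against 5, 27 and 3 counts in HET replicates 1 to 3. These counts are near the floor, and no fold is given for either gene.

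Tnc, which encodes the tumour and wound matrix glycoprotein tenascin-C, was the abundant member with a positive fold change. It lies on chromosome 4 from 63959785 to 64047015. Tnc had 2410.4, 697 and 1299 CPM in KO replicates 1 to 3, against 247, 451 and 1025 CPM in HET replicates 1 to 3. KO replicates 1 and 3 stood above every HET library, and KO replicate 2 stood under HET replicate 3. The means were 1469 ± 869 CPM in KO and 574 ± 403 CPM in HET (SD, n = 3 each). EdgeR put the log2 fold change at 1.36 ± 0.67 (SE; unadjusted p = 0.0865, adjusted p = 0.592), and it was above 0 with each library left out in turn (0.79 to 2.08), being 0.79 without KO replicate 1 (adjusted p = 0.686) and 2.08 without HET replicate 3 (adjusted p = 0.816). An antisense-strand transcript, 8030451A03Rik, shares 176 exonic bases with Tnc and had 0.853% to 0.897% of its count in KO and 0.617% to 0.807% in HET.

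Tnxb encodes tenascin-X, a large matrix protein of loose connective tissue whose loss in humans causes a form of Ehlers-Danlos syndrome. It lies on chromosome 17 from 34670535 to 34719815. Tnxb had 11.0, 0.465 and 10.9 CPM in KO replicates 1 to 3, against 11.9, 40.9 and 66.2 CPM in HET replicates 1 to 3. Every KO library lay under every HET library, but KO replicates 1 and 3 nearly reached HET replicate 1. EdgeR gave a log2 fold change of -2.41 ± 1.13 (SE), at an unadjusted p of 0.0752 and an adjusted p of 0.589. KO replicate 2, with the lowest value, was also the library with little Col1a2, and without it the log2 fold change was -1.85 (adjusted p = 0.950). On the log2(RPKM + 1) scale, which understates changes of low genes, the difference was -0.50 (limma adjusted p = 0.541).

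The tenascins had fold changes of opposite sign. The count of Tnc was 218, 1500 and 119 times that of Tnxb in KO replicates 1 to 3, against 20.7, 11.0 and 15.5 times in HET replicates 1 to 3. The count of Tnc was 2.04, 0.619 and 0.653 times that of Sparc in KO replicates 1 to 3, against 0.0254, 0.0915 and 0.376 times in HET replicates 1 to 3. In both ratios every KO library lay above every HET library. These pairs were picked after their values were seen, so the ratios are descriptions without a test.

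**Figure D2:**
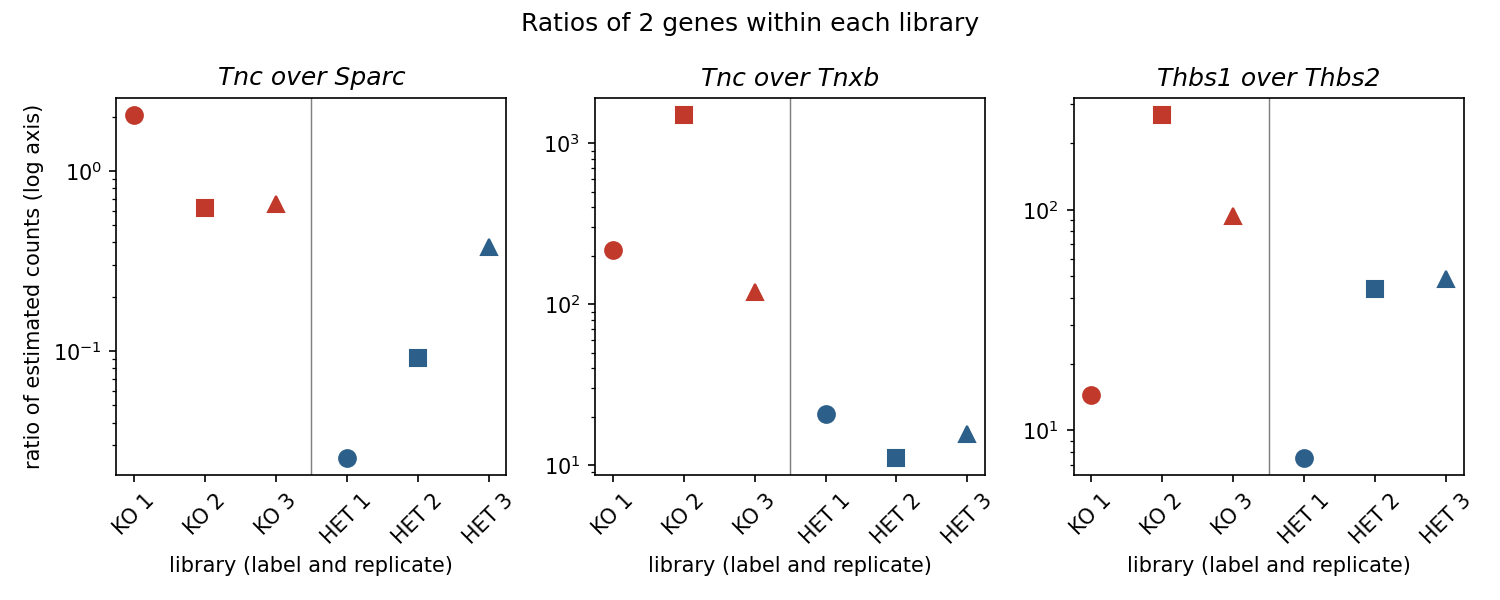
Ratio of the estimated counts of 2 genes within each library (log axes), KO replicates 1 to 3 to the left of the vertical line and HET replicates 1 to 3 to its right. Tnc over Sparc and Tnc over Tnxb separate the labels, with the smallest gap for Tnc over Sparc between KO replicate 2 (0.619) and HET replicate 3 (0.376), while Thbs1 over Thbs2 overlaps.

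Postn, an integrin-binding protein that aids collagen crosslinking and a common marker of activated stroma, varied more between libraries than between labels. It lies on chromosome 3 from 54361109 to 54391037. Postn had 13.3, 439.8 and 83.4 CPM in KO replicates 1 to 3, against 1307, 406 and 53.8 CPM in HET replicates 1 to 3. The highest library exceeded the lowest 33.2-fold within KO and 24.3-fold within HET, and the labels overlapped. KO replicate 2, nearly without Col1a2, held the second highest level. The log2 fold change was -1.72 ± 1.44 (SE, edgeR adjusted p = 0.710), and it was -3.62 without KO replicate 2 (adjusted p = 0.950) and -0.36 without HET replicate 1 (adjusted p = 0.941).

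Sparc was the only member called by any test run, as lower in KO by DESeq2. It encodes the collagen-binding glycoprotein osteonectin and lies on chromosome 11 from 55394500 to 55423183. Sparc had 1183, 1126 and 1989 CPM in KO replicates 1 to 3, against 9726, 4928 and 2723 CPM in HET replicates 1 to 3. Every KO library lay under every HET library, and KO replicate 3 and HET replicate 3 were closest. The mean in HET was 4.04 times that in KO, and edgeR gave a log2 fold change of -2.02 ± 0.56 (SE), at an unadjusted p of 0.0101 and an adjusted p of 0.579. DESeq2 gave -2.02 ± 0.54 and an adjusted p of 0.0233. With single libraries left out, the log2 fold change ran from -2.35 without HET replicate 3 (adjusted p = 0.816) to -1.41 without HET replicate 1 (adjusted p = 0.564). The unadjusted p was then 0.0042 to 0.0379. The sum of the fibroblast markers was lower in the same label. Of these markers only Col1a1, Col1a2 and Col3a1 separated the labels, while Pdgfra (log2 fold change -0.25), Dcn (0.10) and the others overlapped. Col1a1, the main chain of type I collagen, had 411, 2.56 and 274 CPM in KO replicates 1 to 3, against 4948, 1218 and 525 CPM in HET replicates 1 to 3. Without KO replicate 2, the library with the least Col1a1, Sparc was at -1.87 (adjusted p = 0.950), close to the value with all libraries, and the part of fibroblast content in the difference was not tested.

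Sparcl1, the SPARC-like protein hevin, known from vessels and brain, lies on chromosome 5 from 104079111 to 104113733. Sparcl1 had 1.66, 1.50 and 0.238 CPM in KO replicates 1 to 3, against 1.24, 0.711 and 0.588 CPM in HET replicates 1 to 3. KO replicate 3, at 6 counts, was the lowest and KO replicate 1 the highest. The log2 fold change was 0.43 ± 0.75 (SE, edgeR adjusted p = 0.866), with no separation of the labels.

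**Figure D3:**
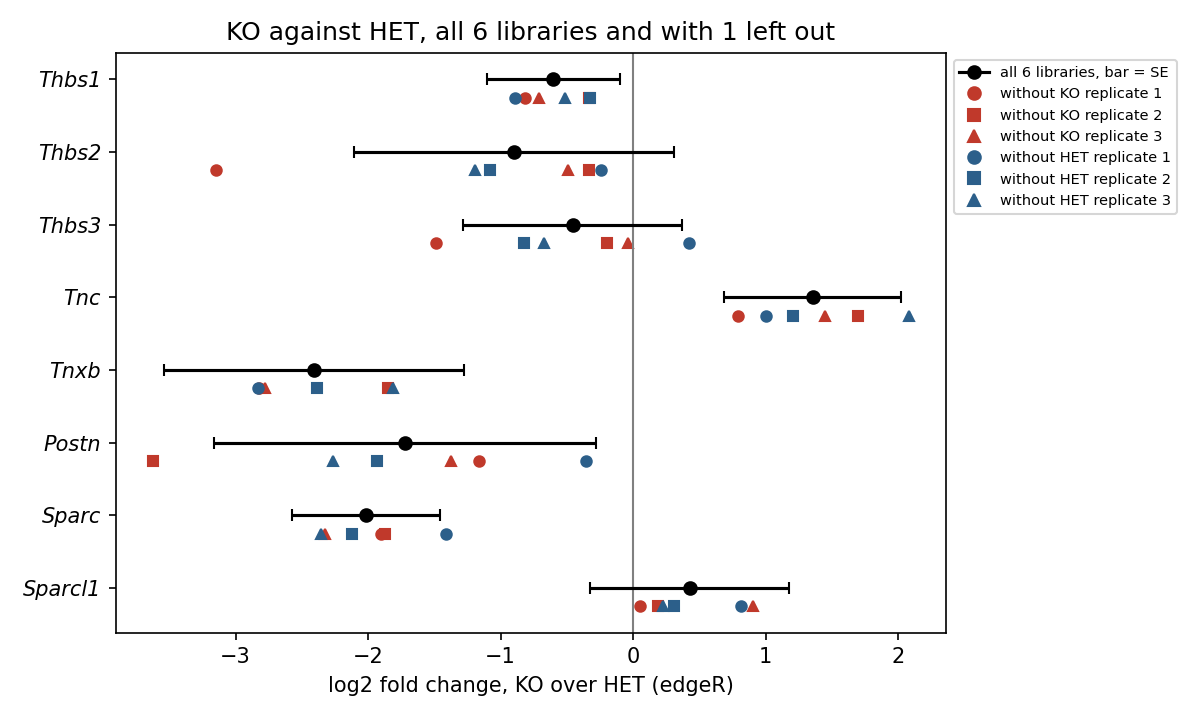
Log2 fold change of KO over HET for the 8 genes tested (black, bars are SE of the edgeR fit) and the same value with 1 library left out (red symbols, a KO library; blue symbols, a HET library). Sparc and Tnxb stay under 0 and Tnc above 0 in each, Thbs2 and Postn shift most, and Thbs3 crosses 0 without HET replicate 1.

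KO replicate 3 and HET replicate 3 carry the same number in their titles. Set side by side, KO replicate 3 stood lower than HET replicate 3 by a log2 difference of -0.45 for Sparc, -2.60 for Tnxb, -1.49 for Thbs2, -1.43 for Thbs3, -1.31 for Sparcl1 and -0.55 for Thbs1. It stood higher by 0.34 for Tnc and 0.63 for Postn. This is 1 library against 1, without a replicate check, and Tgfb1i1 was higher in the KO library of the pair. KO replicate 2, with the least Tgfb1i1, held the lowest of all 6 values for Thbs1, Thbs2, Tnxb and Sparc, but not for Tnc, Postn, Thbs3 or Sparcl1.

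By the root mean square difference of centred log2 CPM over the 6 libraries, the genes with the pattern most like Thbs1 were Anxa1 (0.08), Lats2 (0.12) and Vopp1 (0.12), where Thbs1 itself varied by 0.61 about its mean. Anxa1, which encodes the phospholipid-binding annexin A1, had 787, 385 and 674 CPM in KO replicates 1 to 3, against 483, 1292 and 1130 CPM in HET replicates 1 to 3. For Sparc, which varied by 1.11, they were Hif1a (0.12), Hspa2 (0.21) and Bicc1 (0.24). Hif1a, the hypoxia-regulated transcription factor subunit, had 62.0, 60.1 and 133 CPM in KO replicates 1 to 3, against 557, 286 and 145 CPM in HET replicates 1 to 3. The nearest genes to Thbs2 (Tcf23 at 0.44, Ddc at 0.55 and Sec16b at 0.62) and to Postn (Glra1 at 0.45 and Wnt10b at 0.47) were farther from their member, and of those named all but Sec16b stayed at or under 2.20 CPM. The closest of so many genes over 6 libraries will lie near a member by selection alone, so these distances describe the libraries only.

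Most tested genes of the wider matricellular class were lower in KO by value, although no gene of any list passed edgeR's adjusted threshold. The summed level of the class overlapped, at 5487 to 11256 CPM in KO and 8000 to 15809 CPM in HET. The lists were chosen with earlier results of these data known, so their counts are descriptions and not independent tests. Of 25 other matricellular genes 20 were tested, 14 with a log2 fold change under 0 and a median of -0.79. At an unadjusted p under 0.05 in edgeR, 6 were lower and 0 higher, beside 4.29% lower and 4.30% higher over all genes tested. The labels did not overlap for 6, all lower in KO, beside 7.40% of all genes lower and 8.09% higher. DESeq2 called Fbln5 and Efemp1, both fibulins, as lower, beside 0.961% of all genes. Nov, a CCN-family protein, had 3.39, 2.76 and 0.991 CPM in KO replicates 1 to 3, against 9.39, 7.71 and 7.34 CPM in HET replicates 1 to 3 (log2 fold change -1.77 ± 0.50, adjusted p = 0.579). Fbln5, which takes part in elastic fibre assembly, had 96.5, 43.4 and 46.9 CPM in KO, against 464, 121 and 198 CPM in HET (-2.07 ± 0.59, adjusted p = 0.579). Fstl1, a secreted protein with a follistatin and SPARC-type domain, had 848, 791 and 925 CPM in KO, against 2395, 2012 and 1086 CPM in HET (-1.10 ± 0.36, adjusted p = 0.579). None of these 3 overlapped between the labels. Without KO replicate 2, 16 of the 20 were under 0, with a median of -0.94 and 4 lower and 0 higher at an unadjusted p under 0.05, where 3.09% of all genes were lower and 2.00% higher.

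**Figure D4:**
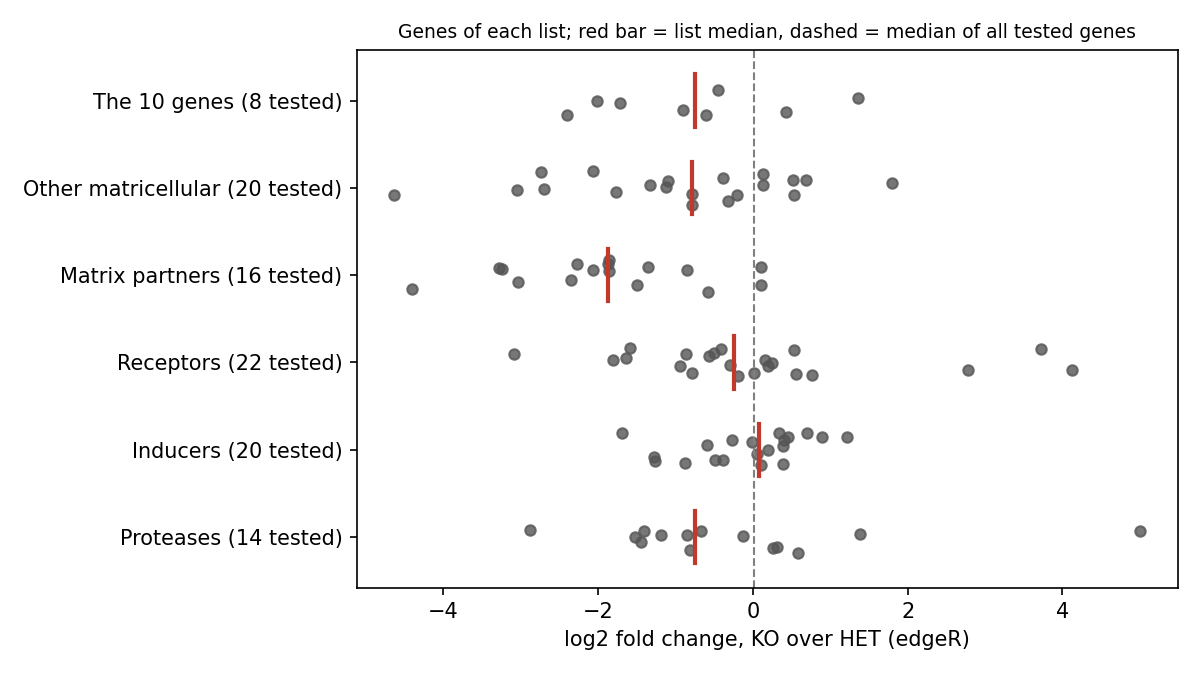
Log2 fold change of KO over HET (edgeR) for every tested gene of each list, with list medians in red and the median of all tested genes dashed. Matrix partners have the lowest median (-1.87), while receptors (-0.24) and inducers (0.08) lie near the median of all genes.

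Matrix partners are the collagens, fibronectin and crosslinking enzymes with which these proteins associate. Of 16 tested, 14 had a log2 fold change under 0, beside 49.1% of all genes, and the median was -1.87. At an unadjusted p under 0.05 in edgeR, 3 were lower and 0 higher, beside 4.29% lower and 4.30% higher over all genes. Their summed level was 4790 to 8858 CPM in KO and 10130 to 31015 CPM in HET, without overlap. The sums of other matricellular genes, receptors, inducers and proteases overlapped between the labels. Singly, 5 of the 16 matrix partners did not overlap, all lower in KO, beside 7.40% of all genes lower and 8.09% higher. Col3a1, the chain of type III collagen, had 9.44, 21.8 and 91.3 CPM in KO replicates 1 to 3, against 1873, 629.8 and 95.4 CPM in HET replicates 1 to 3 (log2 fold change -4.41 ± 1.34, edgeR adjusted p = 0.579, DESeq2 adjusted p = 0.00611). Col5a1 had 129, 149 and 223 CPM in KO, against 1271, 644 and 186 CPM in HET, with overlap (-2.07 ± 0.68, adjusted p = 0.579). Col12a1, of a collagen that associates with fibrils, had 334, 876 and 593 CPM in KO, against 1010.1, 2659 and 966 CPM in HET (-1.36 ± 0.56, adjusted p = 0.579). Without KO replicate 2, 15 of the 16 were under 0, with a median of -1.89. The sum of fibroblast markers, which shares collagens with this list, was likewise lower in KO, and its part was not tested.

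Receptors of these proteins had no common direction, with 12 of 22 tested under 0 and a median of -0.24 (-0.06 without KO replicate 2). At an unadjusted p under 0.05 in edgeR, 2 were lower and 3 higher, beside 4.29% lower and 4.30% higher over all genes. Cd47, a thrombospondin receptor, had 63.1, 59.2 and 50.3 CPM in KO replicates 1 to 3, against 82.7, 83.2 and 79.7 CPM in HET replicates 1 to 3, with no overlap and a narrow spread (-0.51 ± 0.17, adjusted p = 0.579). Itga6, a laminin-binding integrin chain, had 21.5, 187 and 73.1 CPM in KO, against 12.6, 15.7 and 12.8 CPM in HET (2.78 ± 0.74, edgeR adjusted p = 0.579). DESeq2 called Itga6 and Itga3 as higher, beside 0.404% of all genes. Both were highest in KO replicate 2, the library with the most Krt8, and the part of epithelial RNA was not tested. Ptprz1, a phosphatase that binds tenascins, had 8.10, 1.27 and 2.62 CPM in KO, against 12.0, 79.8 and 10.0 CPM in HET (-3.08 ± 1.09, adjusted p = 0.579).

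Inducers and transcriptional regulators of the members had 9 of 20 genes under 0 and a median of 0.08 (-0.04 without KO replicate 2). At an unadjusted p under 0.05 in edgeR, 1 was lower and 0 higher, near the 4.29% lower and 4.30% higher over all genes. The lower gene was Twist1, a mesenchymal transcription factor, with 32.0, 16.1 and 26.3 CPM in KO replicates 1 to 3, against 33.9, 43.7 and 58.8 CPM in HET replicates 1 to 3 (-0.87 ± 0.34, adjusted p = 0.579). Smad2 had a log2 fold change of 0.34 ± 0.18 and Prrx1, a fibroblast homeobox gene, of -1.28 ± 0.80 (adjusted p = 0.596 and 0.638). Proteases that can cleave members had 9 of 14 under 0 and a median of -0.74 (-0.46 without KO replicate 2). At the same unadjusted threshold 1 was lower and 1 higher, beside 4.29% lower and 4.30% higher over all genes. Adamts5 had 11.4, 115 and 105 CPM in KO, against 311, 1060 and 339 CPM in HET (-2.89 ± 0.95, edgeR adjusted p = 0.579). The gelatinase Mmp9 had 23.4, 3.93 and 2.18 CPM in KO, against 0.354, 0.427 and 0.118 CPM in HET (5.01 ± 1.13, edgeR adjusted p = 0.579), and Plat had a log2 fold change of -1.52 ± 1.03 (adjusted p = 0.658). DESeq2 called Adamts5 as lower and Mmp9 as higher, beside 0.961% lower and 0.404% higher over all genes.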

How the data were processed

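The authors deposited, per gene and library, estimated counts not scaled between libraries (84.4% of values whole) and RPKM. Bowtie2, Partek and cutadapt 1.2.1 appear in the submitters' processing notes, with the builds mm10 and GRCm38. Per the labels' protocols, libraries were stranded and depleted of ribosomal RNA. How reads were counted is not stated in the sources used here. Of 48408 rows, 30 had a biotype word in place of a gene and were left out, and 7 repeated symbols were summed. Over 10959 genes, the length behind the deposited RPKM values followed the genomic span (95.6% of genes within 10% of a constant factor) and not exonic length (6.98%), so levels per exonic kilobase were computed from CPM and GENCODE M21.

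Counts were rounded, filtered with filterByExpr, scaled by TMM and tested over all genes with edgeR 4.0.16 in R 4.3.3 (quasi-likelihood F test, two-sided, Benjamini-Hochberg, threshold 0.05). The SE of a fold change was derived from its F statistic. Alternatives used DESeq2 1.42.0, limma 3.58.1 (voom, or log2(RPKM + 1) and log2(RPKM + 0.1)), other scalings and filters, 1 extra term for the title number that 2 libraries share, and left-out libraries. The fits were tested on simulated counts whose spread was set in advance and not taken from these libraries. That check does not show how the fits perform at the spread seen here. Replicate numbers follow accession order and pair nothing. Named genes were all members, the 3 genes of smallest unadjusted p in each other list, and the 3 genes nearest in pattern to each of the 4 members of highest mean RPKM, of which 1 is not reported here. Because RPKM followed genomic span, Tnc (9.72) fell just under Thbs2 (10.3) and Postn (10.1) in that mean, and its nearest genes were not sought. Members and lists were chosen with earlier results of these data known.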

Additional observations from a re-analysis of the deposited data

How the results depend on the processing

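Under 16 alternatives, no member passed the adjusted threshold except Sparc in DESeq2, where 1 member and 240 genes passed, and 0 genes passed in the other 15. With single libraries left out, the number of the 8 tested members with a log2 fold change under 0 was 5 to 6, and their median was -1.33 to -0.30. Over the other alternatives the number was 6 and the median -1.22 to -0.48. The direction of Thbs3 turned without HET replicate 1 (its log2 fold change was -1.49 to 0.42 with single libraries left out). That library held the highest Thbs3 value, at 21.7 CPM against 4.77 and 7.69 CPM in HET replicates 2 and 3. Why it was high was not tested. No other member changed direction under any alternative. With library totals alone as the scaling, the median of all genes moved to 0.15, and Sparc was at -1.87, Tnxb at -2.32 and Tnc at 1.46. A term for the title number shared by 1 KO and 1 HET library, the nearest to a replicate block that these labels allow, called 0 genes and gave -1.96 for Sparc. No paired analysis was possible because the labels share only 1 number. Depth limits Thbs4 and Comp, and without the filter neither passed (adjusted p = 0.962 for Thbs4 and 0.717 for Comp).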
